A study of Rattus norvegicus with 3 samples.

Results

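10 genes of the heparan sulfate system were followed in rat kidneys reperfused with blood after cardiac death donation: 4 syndecans (Sdc1, Sdc2, Sdc3, Sdc4), 3 glypicans (Gpc1, Gpc3, Gpc4), perlecan (Hspg2), agrin (Agrn) and heparanase (Hpse). They were chosen by name, as every probe set whose only gene symbol in the platform annotation was one of these, which gave 16 probe sets for 10 of the 14218 genes with a symbol on the array. The kidneys came from male Wistar rats of 370 to 508 g, had 20 min of warm ischaemia and 17 ± 0.7 h of cold storage, and were then perfused from the femoral artery of a live recipient for 5 h 43 min ± 21 min (the labels do not say which kind of error these are). Recipients were infused with heparin at 100 U/ml per h, with a CCL5-derived peptide called peptide 2 at 0.5 mg/ml, or with normal saline at 1 ml/h as control, 7 recipients to a group. The protocol speaks of an infusion and the design text of a bolus, and heparin was not otherwise used against clotting. In each group the 3 RNA samples of best quality were pooled onto 1 Affymetrix array, so each value below stands for a pool, there are no replicates, and no test of a treatment is possible. All groups went through the same ischaemia, storage and reperfusion, so the arrays compare infusions within injured kidneys and hold no uninjured kidney.

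Heparan sulfate is a chain of sulfated sugars built onto a core protein in the Golgi apparatus. Syndecans carry it across the plasma membrane, glypicans hold it on a lipid anchor at the outer face of the membrane, and perlecan and agrin place it in basement membranes, the glomerular one included. Chemokines such as CCL5 bind these chains on endothelium, infused heparin competes for the same binding sites, and heparanase is the enzyme that cuts the chains within the tissue.

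The data show small differences. Of the 10 genes, 9 were measured, which means that a probe set reached the median of all probe sets (4.16 on the heparin array, 4.14 on the peptide and control arrays), and 0 of these 9 differed 2-fold in any of the 3 comparisons. Over all measured genes, 1.06% were higher by that factor and 0.747% lower in heparin than in control, and the peptide array had 0.723% higher and 0.119% lower than control. Between heparin and peptide the shares were 0.281% higher and 0.844% lower, a split of 26 against 78 genes that became 36 against 57 after quantile normalization and 37 against 55 after median centring. At 1.5-fold the members' count on the deposited values was also 0, where 6.41% of all measured genes stood apart in heparin against control, 3.03% in peptide against control and 6.19% between heparin and peptide. After quantile normalization or median centring 1 member, Gpc1 in heparin against control, passed that size (0.62 on the log2 scale). With a background this low, a count of 0 in 9 genes lies near it.

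The widest differences were those of glypican-1, which was 1.47-fold higher with heparin than in control, of syndecan-2, lower in heparin on 2 of its 3 probe sets, of syndecan-4, 1.20-fold higher in peptide than in control, and of agrin, 1.19-fold higher in heparin than in control. Many values were exactly equal on different arrays. Of the 12 measured member probe sets, 8 had at least 2 equal values and 1 had 3, a count that was not made over all probe sets. By gene, 3 of the 9 measured members were identical in heparin and control, 2 in peptide and control and 4 in heparin and peptide. Over all measured genes the shares were 30.1%, 39.5% and 29.5% in the same order. Equality can therefore come from the summarisation of the probes and does not show equal transcript levels.

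**Figure D1:**
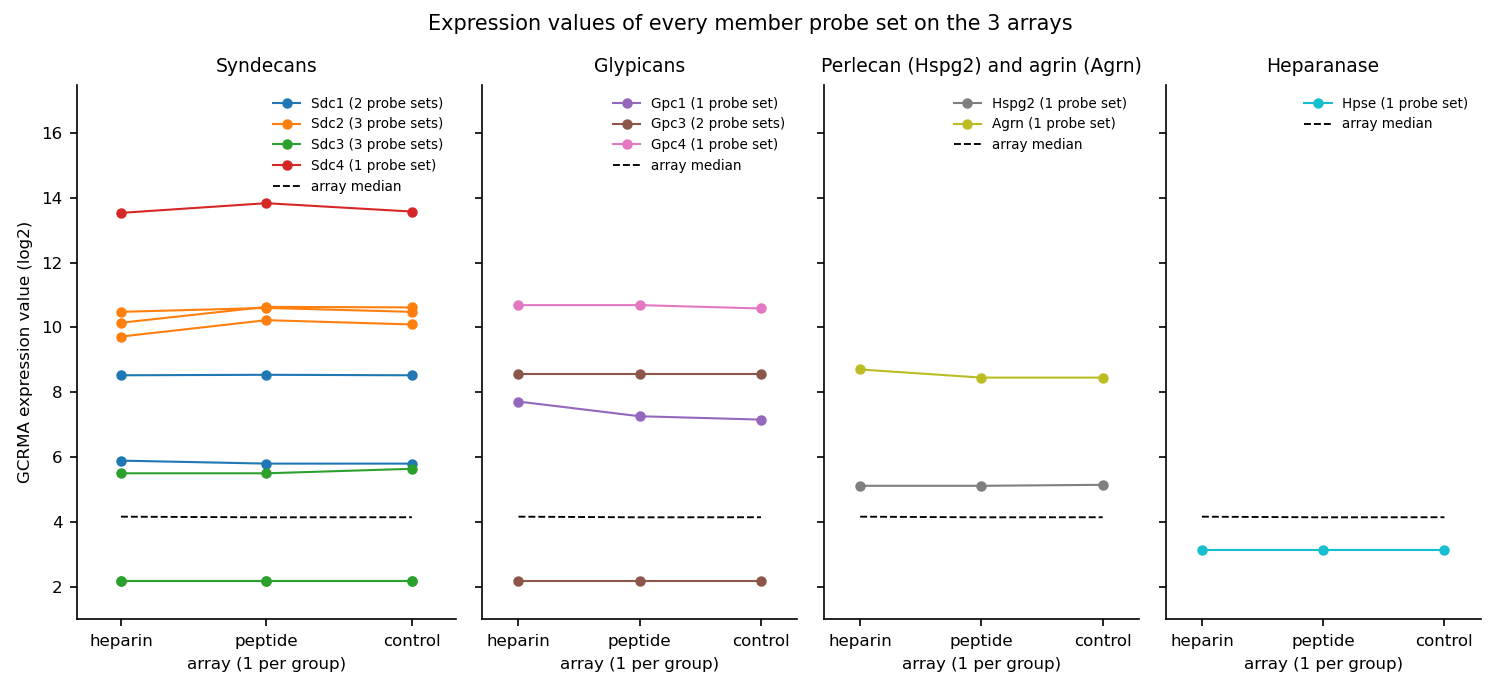
GCRMA expression values (log2, vertical axis) of all 16 member probe sets on the heparin, peptide and control arrays, 1 line per probe set, with the median of all probe sets dashed. The lines run nearly level, the widest being Gpc1 (7.71 in heparin, 7.26 in peptide, 7.16 in control) and Sdc2, while Hpse, a pair of Sdc3 probe sets and 1 of Gpc3 lie under the median.

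Sequence upstream of the annotated transcript start was available from RefSeq (GRCr8) for 8 of the 10 genes. Those of Sdc4 and Sdc1 are shown because they encode 2 members of one family with different readings on the peptide array, where Sdc4 was 1.20-fold higher than in control and Sdc1 1.01-fold. Sdc4 lies on chr3:173574239-173592923 and the 250 bases before its start are chr3:173592924-173593173 on the minus strand. Sdc1 lies on chr6:37282041-37304503, with its window at chr6:37281791-37282040 on the plus strand. Capitals mark a match to the NF-kB consensus (a run of 10 bases, in Sdc4) and to TATAA on either strand (in both, overlapping copies on opposite strands in Sdc1).
Sdc4: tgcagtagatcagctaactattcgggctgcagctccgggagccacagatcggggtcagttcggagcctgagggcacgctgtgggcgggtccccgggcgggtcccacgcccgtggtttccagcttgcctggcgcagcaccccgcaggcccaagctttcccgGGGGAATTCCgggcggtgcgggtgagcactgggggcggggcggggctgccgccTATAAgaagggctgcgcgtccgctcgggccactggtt
Sdc1: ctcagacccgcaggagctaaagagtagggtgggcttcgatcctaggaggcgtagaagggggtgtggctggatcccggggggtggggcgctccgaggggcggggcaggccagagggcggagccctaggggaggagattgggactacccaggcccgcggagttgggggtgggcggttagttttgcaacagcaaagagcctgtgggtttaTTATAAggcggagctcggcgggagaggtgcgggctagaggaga
The NF-kB match of Sdc4 lay 81 to 90 bases before the start and was found in 1 of the 8 member windows, against 3.54% of 33465 windows of the same length in the rat annotation. TATAA was found in 2 of the 8 (24.0% of all windows) and the GC box GGGCGG in 7 of the 8 (30.5% of all windows), with 5 copies in Sdc4, of which 2 overlap by a base, and 3 in Sdc1. The interferon response element GAAANNGAAA was found in 0 of the 8 windows and in 3.41% of all windows. All motifs were searched on both strands. These are matches of letters, and no binding was measured.

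**Figure D2:**
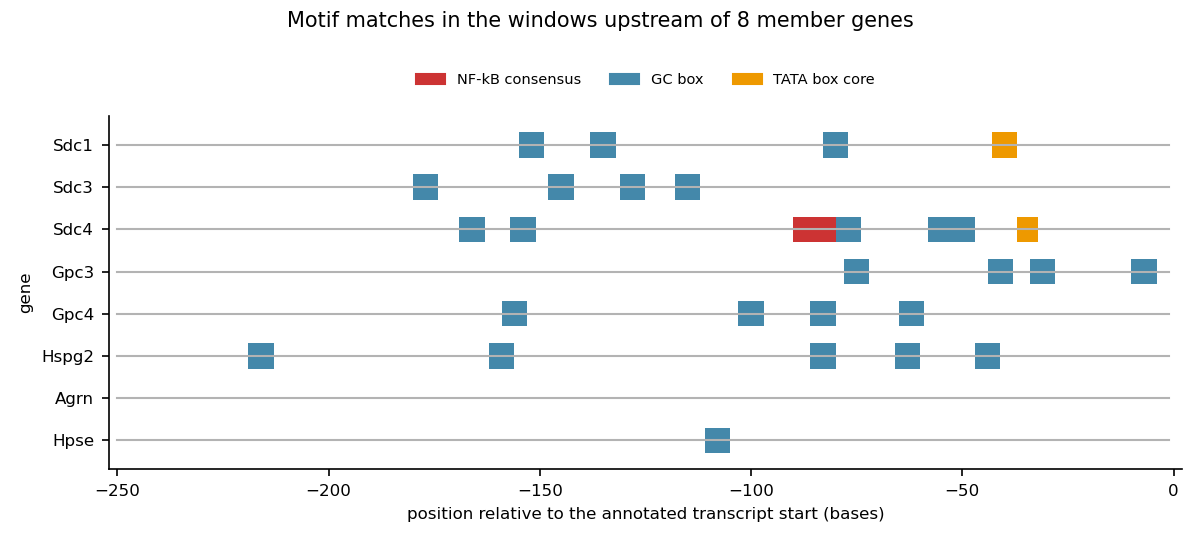
Matches to the NF-kB consensus, the GC box and TATAA in the 250 bases upstream of 8 member genes, drawn by distance from the annotated start (horizontal axis, bases). The NF-kB match appears in 1 of the 8 windows, that of Sdc4, next to a GC box, and Agrn has no match.

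Syndecan-1, the main epithelial syndecan, had values of 8.52 in heparin, 8.54 in peptide and 8.52 in control on its brighter probe set. The other probe set read 5.89 in heparin, 5.80 in peptide and 5.80 in control. Its differences were therefore 0.00 and 0.09 (log2) in heparin against control and 0.02 and 0.00 in peptide against control, and the sign of the 0.02 turned with quantile normalization (-0.0068) and with median centring (-0.0016).

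Syndecan-2 (chr7:66012405-66125101), the syndecan of fibroblasts and endothelium, was read by 3 probe sets, all measured, which differed in what they showed. The first read 10.15 in heparin, 10.64 in peptide and 10.62 in control. The next read 9.72 in heparin, 10.23 in peptide and 10.09 in control. On both, heparin was the lowest array, at 1.39-fold and 1.30-fold below control and 1.41-fold and 1.42-fold below peptide. The remaining probe set, which has the highest mean and therefore stands for the gene in the counts, read 10.48 in heparin, 10.60 in peptide and 10.48 in control, a difference of 0.00 between heparin and control. The mean over the probe sets was -0.28 (log2) between heparin and control, 0.09 between peptide and control, and -0.37 between heparin and peptide. Heparin was lower than peptide on all 3, by 0.12 to 0.51 on the log2 scale. The gap between the lowest and the highest of the 3 differences was 0.47 in heparin against control, and 32.2% of the 397 genes with 3 measured probe sets had a gap at least as wide (median gap 0.31). The same gap for Sdc2 in peptide against control was 0.11, and 62.5% of those genes had one at least as wide. The 3' to 5' gap of the beta-actin control probe sets, a measure of RNA integrity and labelling, was 2.95 on the heparin array, 2.34 on the peptide array and 2.33 on the control array, while that of GAPDH was 0.32, 0.37 and 0.36 in the same order and that of hexokinase 2.18, 2.28 and 2.18. Where the Sdc2 probe sets lie along the transcript was not analysed here. The part of RNA integrity in their disagreement was not tested, nor was its part in the other heparin differences, those of Gpc1 and Agrn included.

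Syndecan-3 (chr5:148249792-148282524), best known from neurons, was measured by 1 of its 3 probe sets, at 5.50 in heparin, 5.50 in peptide and 5.64 in control, and the other 2 stayed at the lowest value of the array, 2.18, throughout. The measured probe set was 1.10-fold lower in both treated pools than in the control pool to which both are compared.

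Syndecan-4, a syndecan of focal adhesions, had a single, bright probe set, at 13.54 in heparin, 13.84 in peptide and 13.58 in control. Peptide was the highest array, 0.26 (log2) above control, and 13.4% of measured genes differed by at least as much in that comparison. Heparin differed from control by -0.04, which became 0.02 with median centring, and from peptide by -0.30. Human endothelial cells are known to induce this gene with tumour necrosis factor.

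Glypican-1 (chr9:100843645-100871458), found on vascular endothelium among other cells, read 7.71 in heparin, 7.26 in peptide and 7.16 in control. Heparin was the high array, and peptide and control lay close together. The difference between heparin and control was 0.56 (log2), and 7.21% of the 9236 measured genes differed by at least as much. Against peptide, heparin was 1.37-fold higher, and peptide was 1.07-fold higher than control. The gene has 1 probe set, so no further reading of it exists on these arrays. Across the alternative settings the heparin difference from control ranged from 0.47 to 0.62.

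Glypican-3 and glypican-4 lie near each other on the X chromosome, Gpc4 at chrX:136565536-136676142 and Gpc3 at chrX:136789770-137157598, 114 kb apart. The brighter probe set of Gpc3, a glypican known for its part in growth control in the embryo, read 8.56 on all 3 arrays, and its other probe set stayed at the lowest value. Gpc4, first described in kidney and brain, read 10.69 in heparin, 10.69 in peptide and 10.59 in control, so that it was 1.07-fold higher in either treated pool than in the control pool they share.

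The basement membrane cores differed from each other. Agrin (chr5:172031528-172064429), which holds the heparan sulfate of the glomerular basement membrane, read 8.70 in heparin, 8.45 in peptide and 8.45 in control on its single probe set. Heparin was the high array, 0.25 above each of the others on the log2 scale, a size that 23.3% of measured genes reached against control. Perlecan (chr5:154960818-155061971), a large core of vascular and tubular basement membranes, read 5.11 in heparin, 5.11 in peptide and 5.14 in control, and the sign of its heparin difference from control (-0.03) turned with median centring (0.03).

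Heparanase (chr14:9200971-9241377) was not measured by the filter used here. Its probe set read 3.12 on all 3 arrays, below the median of each, so neither a level nor a difference can be taken from it. With the filter at the 40th percentile, or with none, it entered the comparisons with differences of 0.

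The higher heparin values of Gpc1 and Agrn stood beside marker genes of several kidney cells. Of the 9 measured members, 3 were higher in heparin than in control (Gpc1, Agrn and, by 0.10 on the log2 scale, Gpc4). Another 3 were lower and 3 identical. Sdc2 differed by -0.47, -0.37 and 0.00 on its 3 probe sets, and Hspg2 by -0.03. In a bulk pool, fewer cells of a type and less RNA per cell cannot be told apart. All 5 podocyte markers found on the array (of 6 listed) were measured and higher in heparin than in control, and their summed level (log2 of the sum of unlogged values) was 11.52 in heparin, 10.80 in peptide and 10.97 in control. The same 5 were all lower in peptide than in control. Of these, Nphs1 differed from control by only 0.04 (log2) in heparin and -0.04 in peptide. Synpo has another measured probe set, which differed by 0.00 in both. Podxl, a sialoprotein of the podocyte surface, was 1.67-fold higher in heparin than in control. Wt1, a podocyte transcription factor, read 7.999 in heparin, 6.68 in peptide and 7.48 in control, which made it 2.49-fold higher in heparin than in peptide and 1.73-fold lower in peptide than in control. The 8 endothelial markers found of 9 were all measured, 6 higher and 1 lower in heparin than in control, with summed levels of 12.30 in heparin, 11.81 in peptide and 11.97 in control. In peptide against control 2 of them were higher, 3 lower and 3 identical, and Kdr had the widest difference there (-0.56 on the log2 scale). Emcn, a sialomucin of capillary endothelium, was 1.43-fold higher in heparin than in control. Vwf went the other way, by -0.16 (log2) in heparin and 0.36 in peptide against control. Markers of fibroblasts, mesangium and smooth muscle had 6 of 8 higher and 2 lower, with summed levels of 11.11 in heparin, 10.76 in peptide and 10.77 in control. In these 3 lists no marker was at the lowest value. Platelet markers went the other way, with 4 of 4 measured genes lower in both treated pools and summed levels of 9.75 in heparin, 9.76 in peptide and 10.57 in control over the 6 found of 8, and Gp9 was at the lowest value on every array. The part of cell makeup in the member values was not tested. The 7 proximal tubule markers were all measured on every array, with values between 9.12 and 14.22.

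**Figure D3:**
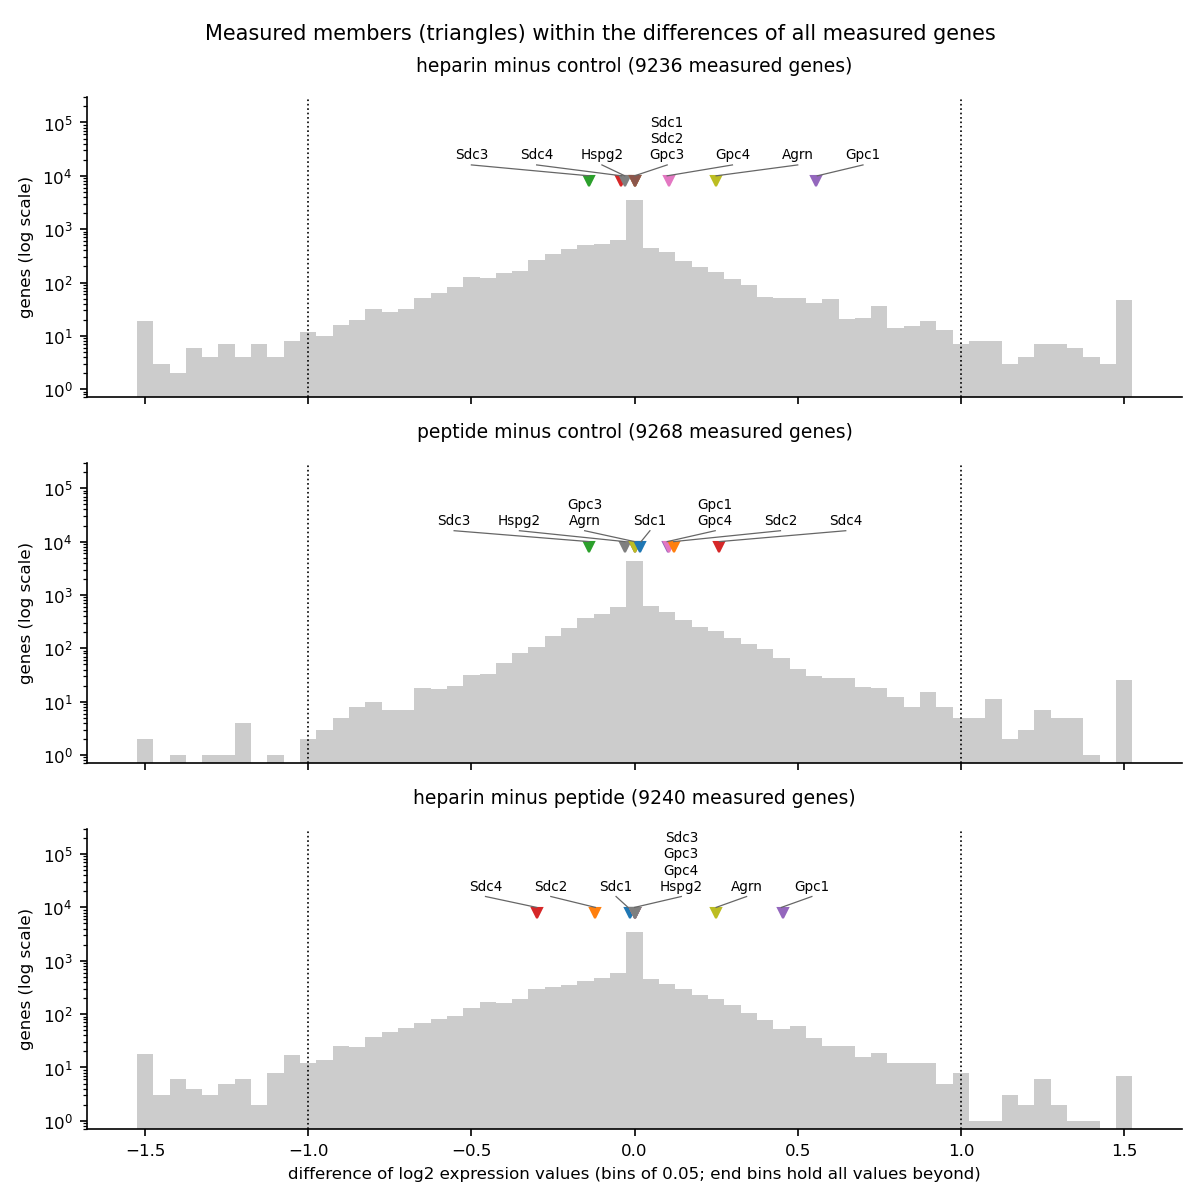
Distribution of log2 differences over all measured genes (grey, gene counts on a log axis) for heparin minus control, peptide minus control and heparin minus peptide, with the 9 measured members as triangles and dotted lines at 2-fold. The members lie between -0.14 and 0.56 in heparin minus control, between -0.14 and 0.26 in peptide minus control and between -0.30 and 0.45 in heparin minus peptide, all within the dotted lines.

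As a group, the 9 measured members had a median difference of 0.00 in heparin against control (3 higher, 3 lower, 3 identical), 0.02 in peptide against control (5 higher, 2 lower, 2 identical) and 0.00 in heparin against peptide (2 higher, 3 lower, 4 identical). The median over all measured genes was 0.00 in each comparison, with 2379 genes higher and 4081 lower in heparin against control. Both treatments were set against the same control array. By absolute size the members' median was 0.04 in heparin against control, where it was 0.08 over all measured genes, and 0.10 in peptide against control, where it was 0.03.

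The measured enzymes that build and sulfate the chains were within 2-fold. Few of all measured genes reached that size (1.06% higher and 0.747% lower in heparin against control), so counts of 0 lie near the background. Of 14 chain assembly genes 8 were measured, and 0 were 2-fold apart in any comparison, with a median of 0.00 in each. B3gat3, which adds the glucuronic acid that completes the linker between core and chain, read 6.19 in heparin, 6.68 in peptide and 6.68 in control, which made it 1.40-fold lower in heparin than in either. Ext1, a chain polymerase, was at 9.29 in heparin, 9.31 in peptide and 9.13 in control, while its other measured probe set differed by 0.00 in both comparisons with control. Of 21 sulfation and editing genes 9 were measured, again with 0 at 2-fold, and medians of 0.00 in both comparisons with control and of -0.08 between heparin and peptide. In that last comparison 6 of the 9 were lower in heparin and 2 higher, where all measured genes had 4034 lower and 2478 higher, and the list's median became 0.0025 with median centring. Papss1, which makes the sulfate donor, read 8.66 in heparin, 9.04 in peptide and 8.74 in control. Hs6st1, a sulfotransferase acting on glucosamine, read 7.94 in heparin, 8.18 in peptide and 7.93 in control.

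Genes of chain breakdown and of core shedding were likewise within 2-fold. Of 10 breakdown genes 6 were measured, with medians of 0.00 in heparin against control and -0.01 in peptide against control. Idua, the lysosomal iduronidase, was at 7.27 in heparin, 7.03 in peptide and 6.80 in control, 1.38-fold higher in heparin and 1.17-fold higher in peptide than in control. Ctsl, the lysosomal protease that activates heparanase, differed by -0.15 and -0.07 (log2) from control in heparin and in peptide, and its other measured probe set by -0.41 and -0.07. Of 10 shedding genes 6 were measured, with 4 higher, 1 lower and a median of 0.21 in heparin against control and -0.01 in peptide against control. The 4 higher were Timp1 (0.37), Mmp9 (0.28), Adam17 (0.27) and Timp3 (0.16), and Mmp14 (-0.17) was the lower one. Timp1 and Timp3 are inhibitors, so the median does not stand for the shedding enzymes alone. Adam17, a sheddase of syndecans, read 7.94 in heparin, 7.57 in peptide and 7.67 in control. Mmp14, a membrane metalloproteinase, read 8.75 in heparin, 8.31 in peptide and 8.92 in control, 1.52-fold lower in peptide than in control, although its other measured probe set differed by 0.00. Timp3, an inhibitor that binds sulfated chains, was read inconsistently, with differences of -0.49, -0.32, 0.16 and 0.64 between heparin and control on 4 probe sets.

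Among other proteoglycans the larger differences belonged to those carrying chondroitin, dermatan or keratan sulfate. Of 12 such genes 6 were measured, and in heparin against control 5 were higher, 0 lower and 1 identical, with a median of 0.52 where that of all measured genes was 0.00. In peptide against control 2 were higher and 4 lower, with a median of -0.02. Decorin (Dcn), which binds collagen fibrils, read 10.59 in heparin, 10.11 in peptide and 9.64 in control, 1.93-fold higher in heparin than in control and 1.38-fold higher in peptide. Versican (Vcan), a large matrix proteoglycan, read 9.24 in heparin, 8.77 in peptide and 8.56 in control. Its 4 measured probe sets were all higher in heparin than in control, by 0.68, 1.17, 0.51 and 1.13 on the log2 scale, so that 2 of them passed 2-fold. Both genes were highest in heparin and lowest in control. Esm1, an endothelial dermatan sulfate proteoglycan, read 9.54 in heparin, 8.92 in peptide and 8.97 in control. Osteoglycin (Ogn) was 1.39-fold higher in heparin than in control on the probe set that stands for it, but its other 3 measured probe sets gave differences of -0.33, 0.05 and -0.18. The median of this list was 0.00 in heparin against control without the filter on low values. Fibroblasts make several of these proteins, and the fibroblast, mesangial and smooth muscle markers given above were higher in the same pool, and the part of cell makeup was not tested here either.

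Of 11 other heparan sulfate carriers, 4 were measured in heparin against control and 5 in peptide against control, with medians of 0.17 and -0.05. Collagen XVIII (Col18a1), a basement membrane collagen that carries heparan sulfate, was 1.28-fold higher in heparin than in control at 10.08 in heparin, 9.57 in peptide and 9.73 in control, while its other measured probe set differed by -0.17. Serglycin (Srgn), the intracellular proteoglycan of blood cell granules, read 11.85 in heparin, 11.53 in peptide and 11.52 in control.

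**Figure D4:**
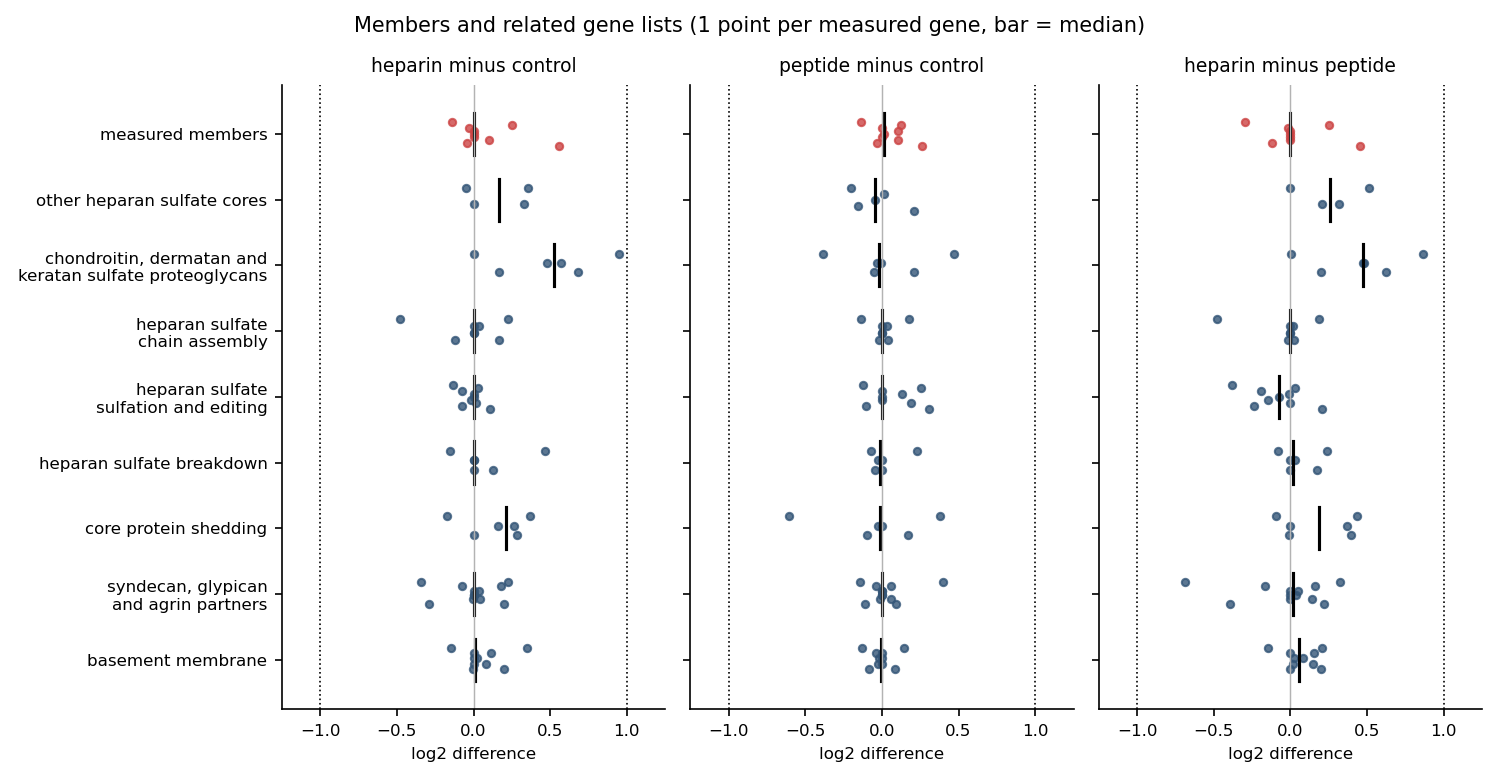
Log2 differences (horizontal axis) of the measured members (red) and of 8 related gene lists (blue) in the 3 comparisons, 1 point per measured gene, black bars marking list medians and dotted lines 2-fold. The members cluster near 0, and the chondroitin, dermatan and keratan sulfate list lies higher in heparin minus control (median 0.52) and heparin minus peptide (median 0.48).

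Over the pair of differences from control, the gene nearest to Gpc1 was Nod1 (0.56 in heparin and 0.11 in peptide), followed by Pxk and Fpgs at distances of 0.022 and 0.033. Those nearest to Sdc4 were Zfand3, Gstk1 and Grb10, at distances of 0.0023 to 0.0075 on the log2 scale. The likeness rests on 3 arrays and 9186 genes, and 30 genes lay within 0.1 of Gpc1 and 208 of Sdc4, so these names describe nearness of values only.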

How the data were processed

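Each of 3 arrays carried pooled RNA of 3 kidneys, labelled from 6 µg. The deposited table holds GCRMA values on a log2 scale, 1 per probe set and array, which the authors made, per the submitters' processing notes. Version, settings and between-array normalization were not given in the sources used here. GCRMA corrects background by probe sequence, so low values collapse onto a shared floor (29.5% to 30.9% of probe sets within 0.01 of it) and differences of dim genes shrink.

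The values were used as deposited, with Python 3.11.15 and pandas 2.3.3. Symbols came from the platform annotation (20832 of 31099 probe sets with 1 symbol). A gene was represented by its probe set with the highest mean and counted as measured at or above the median on both arrays compared. Values within 1e-06 were called identical. A log2 difference of 1 (2-fold) or more was counted. No test was made, since each group has 1 array, and the number of arrays limits the precision, since arrays have no read depth. The counting was tested on simulated data.

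The 10 members and the related (8) and marker (10) lists were chosen with earlier results of these data known, and the motifs and the sequences shown after the values were seen. By symbol, 154 of 173 list entries were found. Genes named were the members, up to 3 genes per list and comparison with the widest differences, every list gene at least 2-fold apart, and the 3 genes nearest to each of 2 members. Alternatives were other filters, averaging a gene's probe sets, quantile normalization, median centring, adding 32 to unlogged values and a 1.5-fold threshold.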

Additional observations from a re-analysis of the deposited data

How the results depend on the processing

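No paired analysis was possible because each group has 1 array. In every alternative setting 0 members were 2-fold apart. At 1.5-fold the count was 0 on the deposited values, and Gpc1 in heparin against control passed that size at 0.62 with quantile normalization and with median centring. A value was taken as unmoved if it shifted by less than the SD of all gene differences in its comparison (0.32, 0.23 and 0.29), and a count if it stayed within 1.5 times. By this, 180 of 180 values of single members and 398 of 405 summary values were unmoved. The filters cannot change the difference of a probe set, and averaging cannot change a gene with 1 probe set. Many of the 180 values therefore could not move. The SDs also exceed most member differences, so that a turned sign counts as unmoved, and the count of 180 is no measure of stability. The summary values that moved concern related lists. The chondroitin, dermatan and keratan sulfate list had 0 genes at 2-fold in heparin against control, 1 with median centring and 2 at 1.5-fold, and 2 at 1.5-fold in heparin against peptide. Its medians without the filter were 0 and 0.0031, since genes near the floor then enter. At 1.5-fold the shedding list had 1 gene (peptide against control) and the partner list 1 (heparin against peptide). Using the mean of probe sets left 8 members measured and gave Sdc2 -0.28 in heparin against control, and the filter at the 60th percentile left 7. Over all genes, the count at 2-fold in heparin against peptide was 104, and 55 after adding 32. At 1.5-fold the counts were 592, 281 and 572, where 2-fold gave 167, 78 and 104 (heparin against control, peptide against control, heparin against peptide). Low signal limits what can be said of Hpse, which read below the array medians. To a lesser degree it limits Sdc3 and Hspg2, which were measured but lay under the 60th percentile of the arrays (5.86 to 5.90).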

Other observations

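Basement membrane genes and the partners of the cores were also read. Of 12 basement membrane genes 10 were measured, and 0 were 2-fold apart in any comparison. Their medians were 0.01 in heparin against control, -0.01 in peptide against control and 0.05 in heparin against peptide. In that last comparison 7 were higher, 1 lower and 2 identical, where all measured genes had 2478 higher and 4034 lower. The list's median there ranged from 0.03 to 0.13 across the alternative settings. Lamc1, the laminin gamma chain found in most basement membranes, read 9.37 in heparin, 9.16 in peptide and 9.02 in control, but its other measured probe set went the other way (-0.29 in heparin against control). Nid2, a nidogen that links laminin with collagen IV and perlecan, was 1.15-fold higher in heparin than in either peptide or control.

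Of 14 partners of syndecans, glypicans and agrin 12 were measured, with medians of 0.00 in both comparisons with control. Lrp4, the receptor for agrin at the neuromuscular junction, read 4.66 in heparin, 5.34 in peptide and 4.95 in control, 1.61-fold lower in heparin than in peptide and close to the array median. Actn4, an actin crosslinker that binds syndecan-4, read 10.58 in heparin, 10.98 in peptide and 10.92 in control. Of 5 neutrophil markers 4 were found and measured, with summed levels of 13.53 in heparin, 13.90 in peptide and 13.63 in control. In heparin against peptide 2 were lower, 1 higher and 1 identical, and in peptide against control 2 were higher, 1 lower and 1 identical. S100a8 was 1.42-fold lower in heparin than in peptide, while Csf3r was 0.08 (log2) higher and Cxcr2 was identical. Monocyte and macrophage markers summed to 10.67 in heparin, 10.69 in peptide and 10.07 in control, with 6 of 7 measured and Cd163 at the lowest value. Fcgr3a, an Fc receptor, had the widest difference of the list, 2.09-fold higher in heparin and 2.53-fold higher in peptide than in control. Of the 6, 4 were higher, 0 lower and 2 identical in heparin against control, with a median of 0.20. In peptide against control 3 were higher, 1 lower and 2 identical, with a median of 0.03.

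Among markers of the loop of Henle, distal and collecting tubule all 8 were measured, with summed levels of 15.49 in heparin, 15.47 in peptide and 15.44 in control. In heparin against control 3 were higher (Umod, Aqp2 and Aqp3), 4 lower and 1 identical. In peptide against control 2 were higher, 2 lower and 4 identical. Calb1, a calcium-binding protein of the connecting tubule, was 3.56-fold lower in heparin than in control and 1.17-fold lower in peptide than in control, and tissue kallikrein Klk1 was 3.21-fold lower in heparin and 1.75-fold higher in peptide. Proximal tubule markers summed to 15.40 in heparin, 15.59 in peptide and 15.35 in control. Red cell markers summed to 14.67 in heparin, 14.85 in peptide and 14.91 in control, with 4 of 5 measured and Epb42 at the lowest value. Of the 4, 1 was higher, 2 lower and 1 identical in heparin against control, and 2 were higher and 2 lower in peptide against control. Alas2, an enzyme of haem synthesis, was 2.20-fold lower in heparin than in control, while Gypc, a red cell membrane glycoprotein, was 1.998-fold higher in heparin and 1.48-fold higher in peptide than in control. Of 6 T lymphocyte markers 1 was measured, Cd3e at 4.76 on all 3 arrays, and Cd3d and Cd4 were at the lowest value. The platelet tubulin Tubb1 was 2.80-fold lower in heparin and 2.32-fold lower in peptide than in control.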
